A study of Mus musculus with 91 samples.

Results

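The platelet-derived growth factor (Pdgf) family of the mouse was followed through single cells of the caudal lateral epiblast (CLE). All 6 of its genes, the ligands Pdgfa, Pdgfb, Pdgfc and Pdgfd and the receptors Pdgfra and Pdgfrb, were among the 53379 genes counted. They were chosen by name as a family, with their levels in the kinds of cell compared here already known, so that the contrast between those kinds is given as a description. The cells came from outbred MF1 embryos at the early headfold stage (E8.0), from the epiblast beside the node and along the primitive streak, a region that holds the axial progenitors and, below it, nascent mesoderm. Most of the paraxial mesoderm had been dissected away, the pieces were pooled, and cells were sorted 1 per well for Smart-seq2, a full-length method without molecular identifiers. The 91 cells have no embryo named and count as 1 pool, which allows no test of a difference between them, and the SDs and intervals describe spread over cells and counting error only.

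Pdgf ligands are secreted dimers that act on paired receptor tyrosine kinases. Pdgfra binds the A, B and C chains and Pdgfrb mainly the B and D chains, and the bound receptors signal through Ras and ERK and through Akt. In the early mouse embryo Pdgfa is known from epiblast and ectoderm and Pdgfra from the mesoderm beneath them, while Pdgfb and Pdgfrb are best known from endothelium and the mural cells around it.

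Cells were divided by 2 genes. A cell was called epiblast-like where Nkx1-2, a homeobox gene of the caudal epiblast, had more counts per 1000000 (CPM) than Aldh1a2, the retinoic acid-synthesizing enzyme of paraxial mesoderm, and mesoderm-like otherwise. This gave 43 epiblast-like cells (47.3%) and 48 mesoderm-like cells. All 8 further epiblast markers (such as Cdh1, Epcam and Utf1) had reads in at least 50% of epiblast-like cells, against 4 of 8 in mesoderm-like cells. None of the 8 mesoderm markers (such as Tbx6, Msgn1 and Meox1) reached that share in epiblast-like cells, against 8 of 8 in mesoderm-like cells. Total counts had a median of 2450073 in epiblast-like and 2589802 in mesoderm-like cells (709866 to 4439571 over all cells), and the median number of genes with a read was 8172 in epiblast-like and 7835.5 in mesoderm-like cells. The cell just inside the epiblast-like class had a log2 ratio of Nkx1-2 to Aldh1a2 of 0.27 and the cell just outside it had -0.87, while every other epiblast-like cell was at 7.68 or above. That borderline epiblast-like cell, well B10, joined the mesoderm-like class under other class rules and carried most of the Pdgfd reads.

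Pdgfa and Pdgfra lie on the same chromosome. In GRCm38, Pdgfa covers chr5:138976014-138997370 on the minus strand and Pdgfra covers chr5:75152292-75198215 on the plus strand. The promoters of this pair are shown because the pair carries the pattern described here: 250 bases before and 50 bases after each RefSeq start (GRCm38.p6), with the letters CANNTG (E-box) and GGGCGG (GC box, either strand) in capitals. Pdgfa has 2 starts, the first at chr5:138994895-138995194 and the second at chr5:138994232-138994531, and the Pdgfra window is chr5:75152001-75152300.
Pdgfa, first start: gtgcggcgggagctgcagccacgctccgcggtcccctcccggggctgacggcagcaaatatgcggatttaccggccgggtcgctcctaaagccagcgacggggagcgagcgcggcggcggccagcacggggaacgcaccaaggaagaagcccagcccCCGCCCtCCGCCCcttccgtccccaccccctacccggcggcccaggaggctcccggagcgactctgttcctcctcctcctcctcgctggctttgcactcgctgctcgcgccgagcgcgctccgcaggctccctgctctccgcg
Pdgfa, second start: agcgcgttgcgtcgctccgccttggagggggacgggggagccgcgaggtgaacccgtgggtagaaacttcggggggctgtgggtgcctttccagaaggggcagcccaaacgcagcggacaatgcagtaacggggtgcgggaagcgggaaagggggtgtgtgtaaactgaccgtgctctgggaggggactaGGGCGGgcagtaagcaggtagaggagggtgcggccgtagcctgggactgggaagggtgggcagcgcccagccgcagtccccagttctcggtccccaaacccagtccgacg
Pdgfra: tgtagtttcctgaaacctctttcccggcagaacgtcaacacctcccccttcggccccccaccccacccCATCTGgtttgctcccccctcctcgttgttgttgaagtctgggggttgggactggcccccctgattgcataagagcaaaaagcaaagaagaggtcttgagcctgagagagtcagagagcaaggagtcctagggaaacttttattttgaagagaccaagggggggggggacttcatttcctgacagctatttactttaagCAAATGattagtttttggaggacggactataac
The E-box letters occurred 2 times in the Pdgfra window and in neither Pdgfa window, and 72.3% of all 32851 RefSeq promoter windows of the mouse held them. The GC box letters occurred 2 times at the first and 1 time at the second Pdgfa start and not in the Pdgfra window, against 35.7% of all windows. GC content was 73.3% and 67% in the Pdgfa windows and 51% in the Pdgfra window, where the median window had 52.7%. The T-box letters AGGTGTGA, held by 1.28% of windows, and the TCF/LEF letters CTTTGA, held by 16.003%, were in none of the 3. A TATA box (TATAAA, 13.6% of windows) and a CCAAT box (37.4%) were also not among these letters. Such matches describe the sequence and mark no binding site.

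Pdgfa, the chain that forms the Pdgf-AA ligand, was read in nearly all epiblast-like cells. Its lowest, median and highest levels were 0, 32.7 and 137.6 CPM in epiblast-like cells, against 0, 0 and 149.1 CPM in mesoderm-like cells. A read was found in 42 of 43 epiblast-like cells (97.7%, exact 95% interval 87.7 to 99.9%), against 18 of 48 mesoderm-like cells (37.5%, 23.95 to 52.6%). The classes overlapped, but 42 epiblast-like cells lay above the third quartile of mesoderm-like cells, which was 0.42 CPM. The mean was 41.4 ± 35.97 CPM in epiblast-like cells (SD, n = 43) and 5.45 ± 22.1 CPM in mesoderm-like cells (SD, n = 48), a log2 ratio of 2.71 after 1 CPM was added to each mean. A single mesoderm-like cell, with 149.1 CPM, held 60.8% of that class's 783 Pdgfa reads, and without it the mean of the other 47 was 2.40 ± 6.56 CPM.

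Pdgfra, the receptor for Pdgf-AA, had the opposite distribution. Its lowest, median and highest levels were 0, 0 and 7.96 CPM in epiblast-like cells, against 0, 232.1 and 761.1 CPM in mesoderm-like cells. The mean was 0.43 ± 1.40 CPM in epiblast-like cells, against 270.8 ± 163.8 CPM in mesoderm-like cells, a log2 ratio of -7.57, the second most negative of the 18054 genes with a read in at least 3 cells. Summed over cells, the gene had 44 reads (exact Poisson interval 31.97 to 59.1) in epiblast-like cells, against 35501 reads (35133 to 35872) in mesoderm-like cells. Of the mesoderm-like cells, 46 lay above every epiblast-like cell, and the other 2 had no Pdgfra read. Those 2 cells were among the 5 mesoderm-like cells nearest to the class boundary. One of them had 23.7 CPM of Pdgfa.

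**Figure D1:**
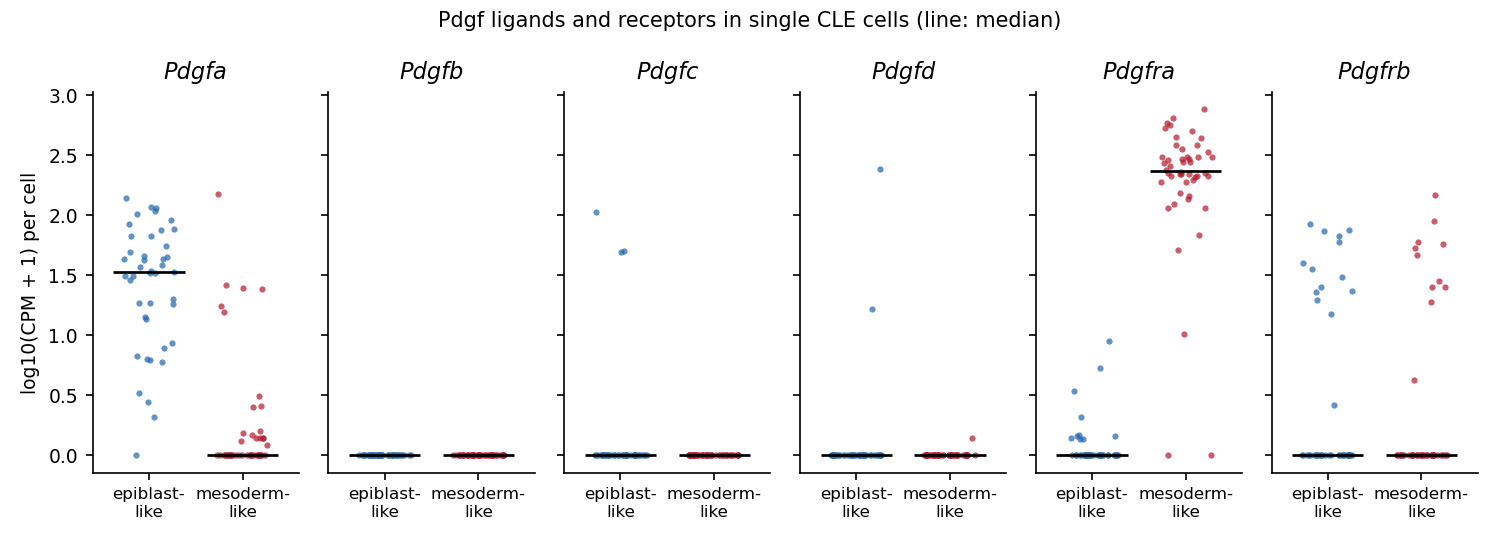
Expression of the 6 Pdgf genes as log10(CPM + 1), 1 point per cell, in 43 epiblast-like (blue, left) and 48 mesoderm-like cells (red, right), with the median as a line. Pdgfa is high in the first class and mostly at 0 in the second, Pdgfra is at or near 0 in the first and has a median of 232.1 CPM in the second, and the other members are at 0 in most cells.

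The other ligands were rare. Pdgfb, the B chain, had no read in any cell: 0 of 43 epiblast-like cells (exact 95% interval 0 to 8.22%) and 0 of 48 mesoderm-like cells (0 to 7.40%). Counted as 3 cells of the total, the limit that a count of 0 allows was 6.98% for epiblast-like and 6.25% for mesoderm-like cells. Of 7 markers of blood and endothelium, known sources of Pdgfb, Tal1 and Gata1 were at 0 in every cell, Etv2 was read in 12 epiblast-like and 6 mesoderm-like cells and Runx1 in 5 epiblast-like and 3 mesoderm-like cells, and Kdr, Cdh5 and Pecam1 were each read in at most 2 cells of a class. The summed level of the list had a median of 0 CPM in both classes, with a highest value of 40.3 CPM in the epiblast-like class, against 54.6 CPM in the mesoderm-like class, and its bearing on Pdgfb was not tested. Pdgfc, whose product must be cut outside the cell before it binds Pdgfra, was read in 3 epiblast-like cells, at 104.8, 49.2 and 48.01 CPM, against 0 of 48 mesoderm-like cells. Pdgfd, the other ligand activated by cutting, was read in 2 epiblast-like cells, at 240.8 and 15.7 CPM, against 1 read in 1 mesoderm-like cell. The higher of those 2 cells was the borderline cell and held 92.4% of the Pdgfd reads of its class. One epiblast-like cell had reads of Pdgfa, Pdgfc and Pdgfd together, at 35.9, 104.8 and 15.7 CPM, and also of Pdgfrb, at 29.6 CPM. It was the single cell with more than 2 ligands.

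Pdgfrb was read in a minority of both classes. It had a read in 14 epiblast-like cells (32.6%, 19.1 to 48.5%), against 11 mesoderm-like cells (22.9%, 12.03 to 37.3%). In both classes the lowest and median levels were 0, and the highest was 83.04 CPM in the epiblast-like class, against 147.0 CPM in the mesoderm-like class. The mean was 13.1 ± 23.9 CPM in epiblast-like cells, against 11.4 ± 28.1 CPM in mesoderm-like cells (log2 ratio 0.18), and the intervals of the 2 shares overlapped; the difference was not tested. Where it was read it was seldom faint: 24 of the 25 cells had at least 5 reads, and these averaged 43.1 CPM in the epiblast-like class, against 49.7 CPM in the mesoderm-like class. In mesoderm-like cells its level went with the number of genes read in the cell (Spearman rho 0.43 over 48 cells, which share a pool and differ in depth), where rho in epiblast-like cells was -0.03 over 43 cells. Markers of mural cells, the best known Pdgfrb-bearing cells, summed to a median of 0 (0 to 77.9) CPM in the epiblast-like class, against 31.2 (0 to 380.3) CPM in the mesoderm-like class. Of these, Rgs5, Acta2 and Notch3 had higher means in mesoderm-like cells and Cspg4 was at 0 in every cell. Abcc9 was read in 1 epiblast-like and 0 mesoderm-like cells. The part of these markers in the Pdgfrb values was not tested.

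By the rule of a 2-fold difference in mean CPM, 3 of the 5 measured members (Pdgfa, Pdgfc and Pdgfd) were higher in epiblast-like cells, where 8.18% of all 18054 measured genes were, and 1 (Pdgfra) was higher in mesoderm-like cells, where 9.55% of genes were. Pdgfc and Pdgfd were placed by 3 and 2 cells, and their medians were 0 in both classes. With 10 CPM added in place of 1, Pdgfa alone passed in the epiblast-like direction. With the borderline cell counted as mesoderm-like, the Pdgfd log2 ratio turned to -2.11. Pdgfa and Pdgfra were also among the cluster markers that the study chose on these same cells, so that their contrast here is not independent evidence.

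**Figure D2:**
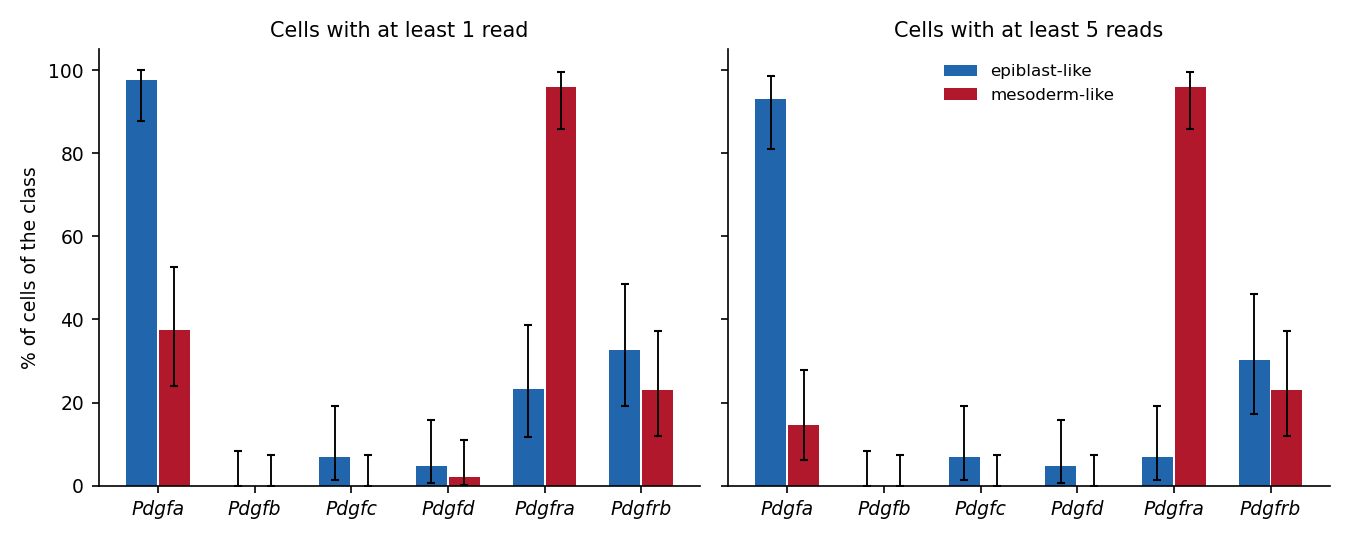
Share of epiblast-like (blue, left bar) and mesoderm-like cells (red, right bar) in which each Pdgf gene had at least 1 read (left panel) or at least 5 reads (right panel), with exact 95% binomial intervals that cover counting error only. Pdgfa in mesoderm-like cells goes to 14.6% and Pdgfra in epiblast-like cells to 6.98% at 5 reads, while the other bars move little.

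Levels of different genes were compared per kilobase of exon (RPKM, with exon lengths of GENCODE M21). Of the ligands, Pdgfa had 82.5% of the summed level in epiblast-like cells, against 99.8% in mesoderm-like cells. Its own level was 13.3 ± 11.5 RPKM in epiblast-like cells, against 1.75 ± 7.10 RPKM in mesoderm-like cells. Of the receptors, Pdgfrb had 98.2% of the summed level in epiblast-like cells, against 7.15% in mesoderm-like cells, although its own level was 2.39 RPKM in epiblast-like and 2.08 RPKM in mesoderm-like cells. Pdgfra had 0.043 ± 0.140 RPKM in epiblast-like and 27.01 ± 16.3 RPKM in mesoderm-like cells. Per length, the receptor in mesoderm-like cells was thus higher than the ligand in epiblast-like cells, by means whose spreads over cells overlapped.

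Co-detection was then counted, that is, reads of a ligand and a receptor in the same cell. With at least 1 read of each, Pdgfa and Pdgfra were found together in 10 epiblast-like cells (23.3%, 11.8 to 38.6%), against 16 mesoderm-like cells (33.3%, 20.4 to 48.4%). Pdgfa alone was found in 32 epiblast-like and 2 mesoderm-like cells, Pdgfra alone in 0 epiblast-like and 30 mesoderm-like cells, and neither in 1 epiblast-like and 0 mesoderm-like cells. At 5 or more reads of each, 3 epiblast-like cells (6.98%, 1.46 to 19.1%) and 6 mesoderm-like cells (12.5%, 4.73 to 25.2%) held the pair. The 3 epiblast-like cells had 7.96, 4.34 and 2.42 CPM of Pdgfra beside 12.7, 5.31 and 48.1 CPM of Pdgfa. None of them had a read of Tbx6. The 6 mesoderm-like cells had from 9.26 to 306.4 CPM of Pdgfra and from 2.12 to 149.1 CPM of Pdgfa, and each had at least 110.7 CPM of Tbx6, a T-box factor of presomitic mesoderm. At 10 CPM of each gene the pair was found in 0 epiblast-like and 5 mesoderm-like cells.

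Many of the co-detected cells held only a few reads of the gene that was low in their class. Pdgfra had 1 to 4 reads in 7 of the 43 epiblast-like cells (16.3%) and Pdgfa had 1 to 4 reads in 11 of the 48 mesoderm-like cells (22.9%). Over 15 genes of adult organs, such counts occurred in 1.71% of 645 gene and cell pairs in epiblast-like and 0.694% of 720 pairs in mesoderm-like cells. Of the 15 genes, 12 were at 0 in all epiblast-like and 13 in all mesoderm-like cells. Cyp2e1 and Mbp were each read in 10 epiblast-like cells (23.3%), at means of 0.10 and 8.86 CPM, against 5 and 1 mesoderm-like cells. The pooled shares thus do not hold for each gene. Among the mesoderm markers in epiblast-like cells, Dll1 had 1 to 4 reads in 4 cells, Tbx6, Msgn1 and Meox1 in 2 each, and Foxc2 and Hes7 in 0. Among the epiblast markers in mesoderm-like cells, Epcam had them in 8 cells, Cdh1 in 4 and Sox3 in 0. Transfer of reads between wells was not tested. Thinned to 500000 counts a cell, the pair was left in 5 epiblast-like and 10 mesoderm-like cells.

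**Figure D3:**
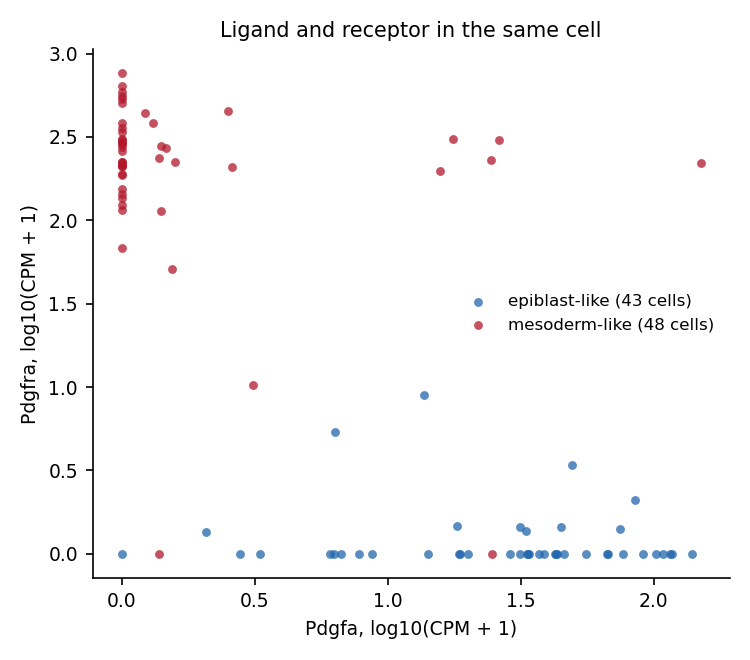
Pdgfra against Pdgfa in the same cell, both as log10(CPM + 1), for 43 epiblast-like (blue) and 48 mesoderm-like cells (red). Most cells lie along an axis, and the 5 mesoderm-like cells at the upper right are those with at least 10 CPM of both genes.

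Pdgfrb was paired with different members in the 2 classes. All 14 epiblast-like cells with a Pdgfrb read also had Pdgfa, against 6 of 11 mesoderm-like cells. All 11 mesoderm-like cells with Pdgfrb also had Pdgfra, against 1 of 14 epiblast-like cells. These counts follow in part from the near-universal reads of Pdgfa in epiblast-like and of Pdgfra in mesoderm-like cells. Any ligand with any receptor, at 5 or more reads of each, was found in 16 epiblast-like cells, 13 of them by Pdgfa and Pdgfrb, and in 6 mesoderm-like cells. Pdgfc was found with Pdgfra, its receptor, in 1 epiblast-like cell, which had 1 Pdgfra read.

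Other ligand and receptor pairs of this region are given for comparison. Fgf8 and its receptor Fgfr1 were read together in 20 of 43 epiblast-like cells, against 23 of 48 mesoderm-like cells, and Fgfr1 itself was read in 42 epiblast-like and 48 mesoderm-like cells. Apela, a peptide ligand, was read in 32 epiblast-like and 7 mesoderm-like cells, and its receptor Aplnr in 7 epiblast-like and 48 mesoderm-like cells, with the pair in 5 epiblast-like and 7 mesoderm-like cells. The chemokine Cxcl12 was read in 22 epiblast-like and 3 mesoderm-like cells and its receptor Cxcr4 in 0 epiblast-like and 14 mesoderm-like cells, and 1 mesoderm-like cell held both. Kit, the receptor for Kitl, was read in 28 epiblast-like and 4 mesoderm-like cells, and its ligand in 13 epiblast-like and 11 mesoderm-like cells.

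Kit belongs to the same class of receptor kinases as Pdgfra and lies next to it in this cluster of receptor genes, which Kdr completes. The gap between Pdgfra and Kit (chr5:75574916-75656722) is 376.7 kb. Kit averaged 47.1 ± 59.02 CPM in the epiblast-like class, against 1.95 ± 12.4 CPM in the mesoderm-like class (log2 ratio 4.03), the direction opposite to that of Pdgfra. At 5 or more reads, Kit and Pdgfra were read together in 2 epiblast-like and 2 mesoderm-like cells, Kit alone in 26 epiblast-like and 0 mesoderm-like cells, and Pdgfra alone in 1 epiblast-like and 44 mesoderm-like cells. Kdr, a Vegf receptor, had a read in 1 epiblast-like and 0 mesoderm-like cells. The comparison of Kit with Pdgfra was added after their values were seen.

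Within the epiblast-like cells Pdgfa varied widely (SD 35.97 CPM on a mean of 41.4 CPM). Its level ran against that of T (Brachyury), a T-box factor of the streak (Spearman rho -0.38 over 43 cells), and against Nkx1-2 itself (rho -0.39), and with Epcam, an epithelial adhesion molecule (rho 0.39). Cdh1, also an epithelial adhesion molecule, had the opposite sign (rho -0.32), as did the mesoderm marker Dll3 (rho -0.47), read in 9 cells. The 28 epiblast-like cells with at least 5 T reads had 30.2 ± 27.8 CPM of Pdgfa (median 29.001), against 62.3 ± 40.9 CPM (median 65.9) in the 15 with fewer, and the 2 groups overlapped. The highest Pdgfa level was 115.5 CPM in the cells with T and 137.6 CPM in those without. Its correlation with the total count was -0.19. The 10 cells with at least 5 reads of Cyp26a1, which degrades retinoic acid, had 29.04 ± 33.01 CPM of Pdgfa, against 45.1 ± 36.5 CPM in the other 33. Pdgfrb had at least 5 reads in 6 of these 10 cells, against 7 of the other 33. These values describe cells of 1 pool and carry no test.

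Within the mesoderm-like cells Pdgfra had an SD of 0.61 times its mean, where that of Pdgfa in epiblast-like cells was 0.87 times its mean. The 2 means differed (270.8 and 41.4 CPM), and the effect of level on these ratios was not tested. Pdgfra was also read in mesoderm-like cells that had Nkx1-2 reads. The 22 mesoderm-like cells with at least 5 Nkx1-2 reads had 251.2 ± 148.4 CPM of Pdgfra (20 with a read). The 26 with fewer had 287.3 ± 177.0 CPM (all 26 with a read). Pdgfa had at least 5 reads in 4 of those 22 cells, against 3 of the 26. The 18 cells with at least 5 Cdh1 reads had 299.3 ± 166.5 CPM of Pdgfra, against 253.6 ± 162.6 CPM in the other 30. With at least 5 reads of Foxc2, a forkhead factor of paraxial mesoderm, 23 cells had 340.9 ± 180.9 CPM of Pdgfra (median 302.8), against 206.2 ± 116.2 CPM (median 221.6) in 25 cells with fewer. The 19 cells with Snai1, the repressor of epithelial genes, had 315.1 ± 142.6 CPM, against 241.7 ± 172.5 CPM in the other 29. Lhx1 went the other way, with 233.4 ± 154.1 CPM of Pdgfra in 25 cells with at least 5 reads, against 311.4 ± 167.7 CPM in 23. In each of these comparisons the means differed by less than the larger of their SDs. Pdgfra went with Meox1, a homeobox gene of somite precursors (rho 0.36), and weakly against T (rho -0.28) over the 48 cells, and its correlation with the total count was 0.12. Of the other mesoderm markers, Dll3 and Foxc2 had rho 0.32 and 0.30. For Tbx6, Foxc1, Dll1, Msgn1 and Hes7 it was 0.16, 0.13, 0.05, 0.01 and -0.19.

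**Figure D4:**
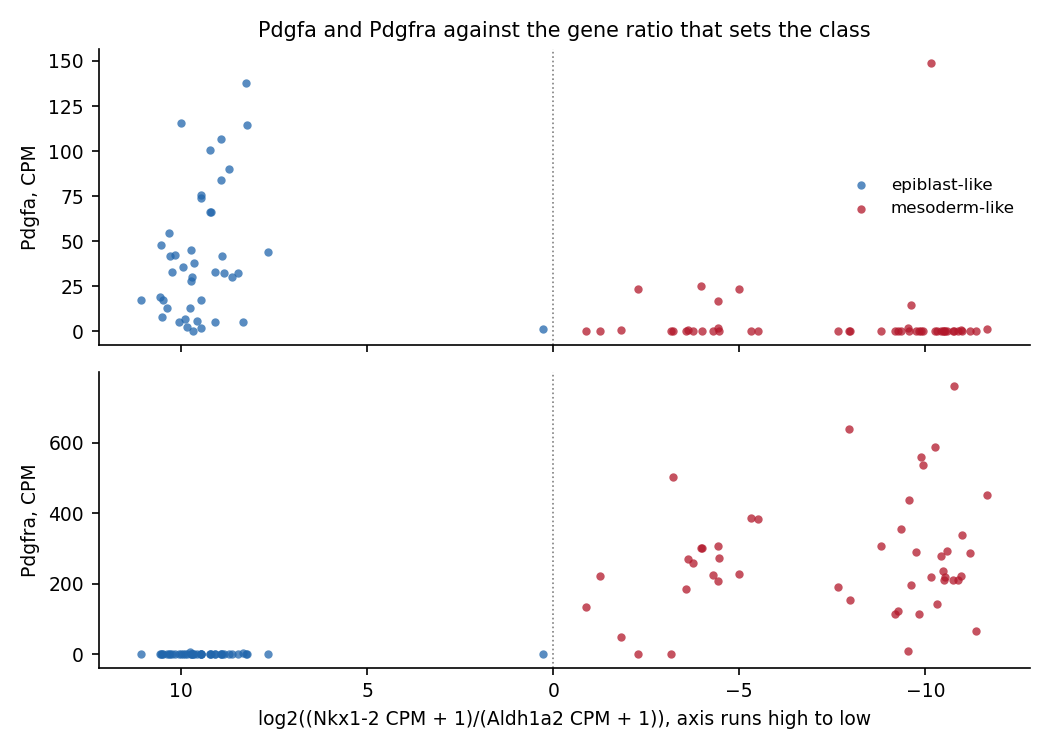
Pdgfa (upper panel) and Pdgfra (lower panel) in CPM against the log2 ratio of Nkx1-2 to Aldh1a2 after 1 CPM was added to each, 1 point per cell, with epiblast-like cells (blue) left of the dotted line and mesoderm-like cells (red) right of it. Pdgfra is present in most mesoderm-like cells of intermediate ratio as well as in those at the far right, and 1 epiblast-like cell lies beside the line.

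The genes most like Pdgfa over all 91 cells by rank correlation, among 9625 genes with a read in at least 30 cells, were Pim2 (rho 0.71), Sall4 (0.68), Hes3 (0.68), Slc2a3 (0.67) and Id3 (0.66). For Pdgfra they were Aldh1a2 (rho 0.81), Fn1 (0.81), Pcdh19 (0.80), Plxna2 (0.78) and Phlda2 (0.77). Fn1 encodes the matrix protein fibronectin and Pcdh19 and Plxna2 a protocadherin and a plexin. These orders repeat the split into classes, which the cells share. Aldh1a2 is itself 1 of the 2 genes that set the classes, and within the mesoderm-like class its rho with Pdgfra was 0.19. Within the epiblast-like class the first genes for Pdgfa (Gm11518, Urod, Ccdc163, Uxs1 and Gm8778) reached no more than 0.50 over 43 cells and none of them was among the genes above. Within the mesoderm-like class the first for Pdgfra were Adam19 (rho 0.60 over 48 cells), a membrane metalloprotease, then Tut4, 2310033P09Rik, Igfbp4 and Med14 (0.49 to 0.47).

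Genes that act around the Pdgf family were read from 4 lists. Of their 47 measured genes, 3 (6.38%) were higher by 2-fold or more in epiblast-like cells, against 8.18% of all genes, and 9 (19.1%) were so in mesoderm-like cells, against 9.55% of all genes. The median log2 ratio was -0.16 over the lists and 0.01 over all measured genes.

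Of 7 measured genes that process or bind the ligands, 1 (14.3%) was higher in epiblast-like cells, against 8.18% of all genes. In mesoderm-like cells 4 (57.1%) were higher, against 9.55% of all genes. Furin, a protease that cuts Pdgf precursors, averaged 6.74 ± 10.3 CPM in the epiblast-like class, against 25.2 ± 27.2 CPM in the mesoderm-like class (log2 ratio -1.76). Lrp1, an endocytic receptor that associates with Pdgfrb, averaged 11.9 ± 22.96 CPM in the epiblast-like class, against 39.4 ± 47.4 CPM in the mesoderm-like class (-1.65). Sparc, a matrix protein that binds Pdgf chains, averaged 26.8 ± 36.2 CPM in the epiblast-like class, against 11.02 ± 18.1 CPM in the mesoderm-like class (1.21). Pcsk5, a relative of Furin, and Plat, the plasminogen activator known to cut Pdgf-CC, were higher in mesoderm-like cells by reads in only 4 and 5 of the 48 cells.

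The signaling machinery below the receptors was present in both classes. Of 19 receptor adaptors and enzymes, 15 differed by less than 2-fold, among them Grb2, Shc1, Ptpn11 and Plcg1. Of the 19, 1 (5.26%) was higher by 2-fold or more in epiblast-like cells, against 8.18% of all genes. In mesoderm-like cells 3 (15.8%) were, against 9.55% of all genes. The tyrosine kinase Src averaged 24.4 ± 31.7 CPM in the epiblast-like class, against 10.8 ± 26.7 CPM in the mesoderm-like class (1.10), and the Ras exchange factor Sos1 averaged 15.2 ± 35.9 CPM in the epiblast-like class, against 58.5 ± 101.4 CPM in the mesoderm-like class (-1.88). Gab1, a docking protein, and Fyn, a kinase of the Src family, were also past 2-fold in the mesoderm-like direction. They had reads in only 15 and 19 of the 48 mesoderm-like cells, against 3 and 15 of the 43 epiblast-like cells. Of 13 genes of the Ras, ERK and Akt cascade, 11 differed by less than 2-fold. In each direction 1 (7.69%) was past it, against 8.18% (epiblast-like) and 9.55% (mesoderm-like) of all genes. Map2k1, a kinase that activates ERK, averaged 290.6 ± 191.9 CPM in the epiblast-like class, against 109.3 ± 111.3 CPM in the mesoderm-like class (1.40). Map2k2, the other such kinase of the list, averaged 126.8 ± 85.9 CPM in the epiblast-like class, against 123.7 ± 96.1 CPM in the mesoderm-like class (0.03). Akt1 averaged 9.44 ± 19.9 CPM in the epiblast-like class, against 25.8 ± 39.95 CPM in the mesoderm-like class (-1.36).

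Of 8 genes that limit the receptors, 7 differed by less than 2-fold, among them the ubiquitin ligase Cbl and the phosphatases Ptpn1 and Ptpn2. None (0%) was past 2-fold in the epiblast-like direction, against 8.18% of all genes, and 1 (12.5%) in the mesoderm-like direction, against 9.55%. Ptprj, a receptor phosphatase known to act on Pdgf receptors, averaged 2.09 ± 7.55 CPM in the epiblast-like class, against 13.2 ± 20.4 CPM in the mesoderm-like class (-2.20). Of 15 measured relatives (such as the Vegf ligands and receptors, Kit, Csf1r and Flt3), Kit alone (6.67%) was past 2-fold in the epiblast-like direction, against 8.18% of all genes. In the mesoderm-like direction 4 were so (26.7%: Vegfa, Vegfc, Pgf and Flt3), against 9.55% of all genes, none with reads in more than 11 of the 48 cells.

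**Figure D5:**
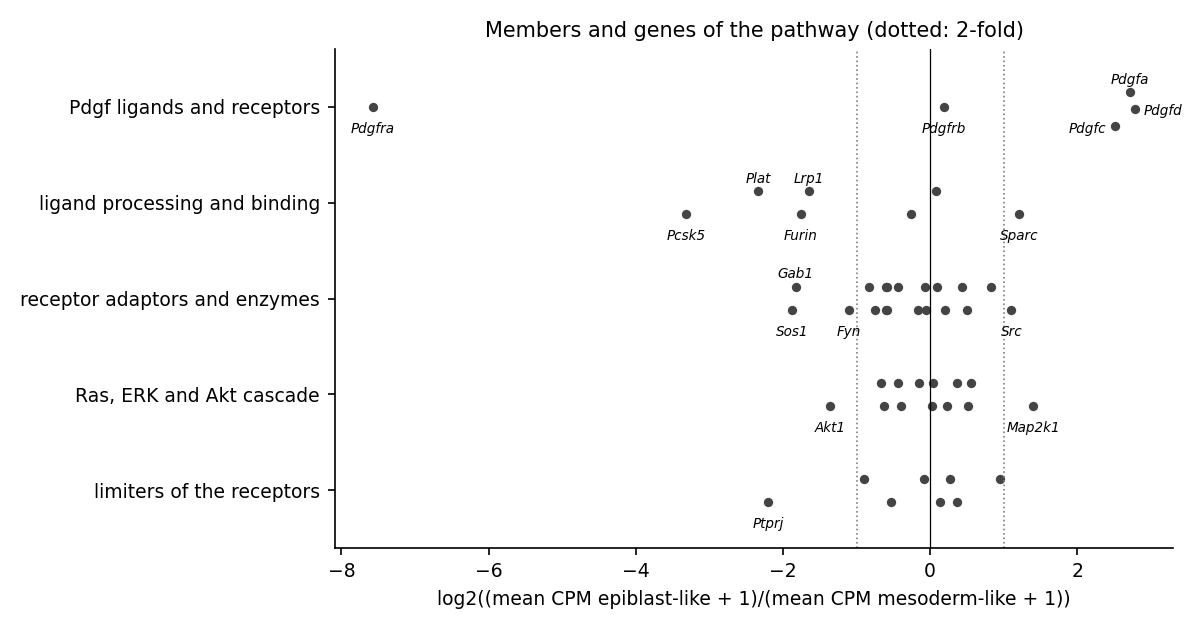
Log2 ratio of mean CPM (1 CPM added), epiblast-like class over mesoderm-like class, for the 5 measured Pdgf genes and for 4 lists of pathway genes, 1 point per gene, with dotted lines at 2-fold and genes past them named. Pdgfra lies at -7.57, beyond every gene of the lists, and most pathway genes lie between the dotted lines.

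Overlapping annotation was checked for each member. The antisense gene 6330403L08Rik shares 813 exonic bases with Pdgfa and had 80 reads in 2 cells, and the opposite-strand genes that share exonic bases with Pdgfc and Pdgfra had none. The strand setting of the counting is not stated in the sources used here, so that antisense reads within these genes could not be told apart from their own.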

How the data were processed

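Per the labels and methods, the authors sorted single CLE cells into wells, made Smart-seq2 libraries, aligned reads with HISAT2 to GRCm38 (mm10) and counted them per gene with featureCounts, but their versions, the annotation and the strand setting were not given in the sources used here. Raw counts make up the deposited table, whole numbers for 53379 genes in 91 cells. Its 53274 matched identifiers were named from GENCODE M21. No spike-in rows were found in it, and no cell was removed.

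Counts were divided by each cell's total (CPM). Classes followed Nkx1-2 and Aldh1a2, as described. Because the 91 cells form 1 pool, no test was run: log2 ratios of class means used a pseudocount of 1 CPM and a rule of 2-fold, over genes with a read in at least 3 cells. Shares have exact Clopper-Pearson 95% intervals, and summed reads exact Poisson intervals. These cover counting error only, as PCR reads are not independent molecules. RPKM used the exon union of GENCODE M21. Named genes were the members, the marker and pair genes, up to 4 genes per list and direction past 2-fold with reads in at least 50% of the higher class, and the 5 genes highest in Spearman rho; other genes named were chosen after their values were seen. The members and lists were chosen with earlier results of these data known. Functions were tested on simulated data. The software was Python 3.11.15, numpy 2.4.6, scipy 1.17.1, pandas 2.3.3, scikit-learn 1.9.0 and matplotlib 3.10.9. Alternatives covered the pseudocount, scaling, depth, detection threshold, class rule and gene filter.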

Additional observations from a re-analysis of the deposited data

How the results depend on the processing

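The Pdgfa log2 ratio stayed between 1.73 and 3.56 and that of Pdgfra between -9.01 and -4.75 under all 11 alternatives of pseudocount, scaling, thinning, pooling, single-cell removal and class rule, each past 2-fold. Pdgfrb stayed under 2-fold in the 11, between 0.11 and 0.38. The Pdgfd log2 ratio reversed to -2.11 with classes by RPKM or by k-means and to -2.14 by marker score, each of which moved the borderline cell. Members higher by 2-fold or more in mesoderm-like cells then numbered 2 under each of these 3 rules. It was 0.44 where classes had to be at least 4-fold apart and 0.46 without the highest cell of each class. With a pseudocount of 10 CPM, 1 member was higher in epiblast-like cells, as Pdgfc (0.56) and Pdgfd (0.67) went under 2-fold.

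Cells with reads of Pdgfa and Pdgfra numbered 3 of 43 epiblast-like and 6 of 48 mesoderm-like cells at 5 reads, 0 and 5 at 10 CPM, and 5 epiblast-like cells when thinned to 500000 counts. Of the 8653 genes of at least 10 CPM on average, 484 (5.59%) were higher by 2-fold or more in epiblast-like cells and 676 (7.81%) in mesoderm-like cells. Of all 18054 measured genes, 1476 (8.18%) and 1724 (9.55%) were so. With median-of-ratios size factors, chosen after seeing the data, the counts over all 18054 genes were 1407 and 1807. No paired analysis was possible because the cells form 1 group. Depth limits the rare members: a gene without reads in a cell may be expressed below detection. The table names no embryo, so that spread between animals is not known.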
